A study of Rattus norvegicus with 3 samples.

Results

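The bone morphogenetic protein (BMP) ligands and receptors measured here are 8 of the 17328 genes in the deposited tables: the ligands Bmp2, Bmp4, Bmp5, Bmp6 and Bmp7, and the receptors Bmpr1a, Bmpr1b and Bmpr2. They were taken by gene symbol, and all 8 had counts in each of the 3 libraries. Nuclei came from the lesion epicenter of spinal cord of SD (Sprague Dawley) rats of genotype WT, aged 17 weeks, 49 days after spinal cord injury. The HGF scaffold library came from cord that had held a scaffold releasing hepatocyte growth factor (HGF) for 7 days. The scaffold library came from cord that had held a scaffold for 7 days. The untreated library came from injured cord with no treatment. There was 1 library per group, with the number of animals behind it not stated, so no difference between groups has a replicate check and no p-value is given. Intervals in the text are exact 95% intervals that cover counting error only.

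BMPs are secreted dimers of the transforming growth factor beta superfamily. They bind a type II receptor kinase (BMPR2) together with a type I kinase (BMPR1A or BMPR1B), which then phosphorylates receptor-regulated SMAD proteins that switch on target genes such as the Id family. In the developing and injured central nervous system the pathway is known for promoting astrocyte differentiation and holding back oligodendrocyte maturation, and in the mouse embryo the meninges, the membranes around the cord and brain, are a known source of BMP ligands.

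After filtering, 891 nuclei of the HGF scaffold library, 2167 of the scaffold library and 2248 of the untreated library remained, with 1450757, 5791715 and 5953189 unique molecular identifiers (UMIs, single captured RNA molecules) in these libraries before filtering. Levels are given as CPM, the UMIs of a gene per 1000000 UMIs of the same nuclei; tags were counted from the 3′ end, so levels are compared between nuclei and not between genes. The libraries shared 1 barcode (HGF scaffold and scaffold), 0 (HGF scaffold and untreated) and 3 (scaffold and untreated). Clusters were formed without the BMP and pathway genes and named from marker lists, so each cell type name below stands for nuclei like that type. A first meningeal cluster of 273 nuclei was led by the transporters Slc6a13 and Slc6a20 and by Aldh1a2, which makes retinoic acid (Slc6a13-type meningeal fibroblasts), and a second of 365 nuclei by the transporters Slc26a7, Slc47a2 and Slc47a1 (Slc26a7-type meningeal nuclei). Together, these meningeal nuclei made up 82 of the HGF scaffold nuclei (9.20%), 217 of the scaffold nuclei (10.0%) and 339 of the untreated nuclei (15.1%). Microglia or macrophages made up 43.9%, 24.6% and 11.1% of the HGF scaffold, scaffold and untreated nuclei. The title markers kept these types apart: Slc6a13 had 1136.9, 924.9 and 1256.6 CPM in Slc6a13-type nuclei and at most 46.7 CPM in Slc26a7-type nuclei, while Slc26a7 had 785.1, 462.3 and 1061.5 CPM in Slc26a7-type nuclei and at most 39.5 CPM in Slc6a13-type nuclei. The whole Slc26a7-type list did not, since Trpm3, a channel on that list, reached 37023.8 CPM in untreated Slc6a13-type nuclei and 11201.0 CPM in untreated Slc26a7-type nuclei. The fibroblast cluster carried Col1a1, Col3a1 and Postn but was led by the cartilage matrix genes Col2a1, Col9a1 and Acan. Clusters that met no naming rule are called by their leading genes.

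The promoters of Bmp6 and Bmp4 are shown because Bmp6 is the ligand that most of the values below concern and Bmp4 is the ligand found in Slc26a7-type but hardly in Slc6a13-type meningeal nuclei. They run from 250 bases before to 50 bases after the annotated start, from RefSeq on build GRCr8, and 5 of the 8 members had an entry (Bmp4, Bmp5, Bmp6, Bmpr1a and Bmpr2). Capitals mark the forkhead core GTAAATA, which was searched on both strands together with the forkhead core GTAAACA and the BMP response element GGCGCC, and chosen after reading the sequences. The Bmp6 promoter lies at chr17:26675212-26675511 and the Bmp4 promoter at chr15:22101884-22102183, both on the minus strand, and both are written 5′ to 3′ in the direction of the gene.
Bmp6: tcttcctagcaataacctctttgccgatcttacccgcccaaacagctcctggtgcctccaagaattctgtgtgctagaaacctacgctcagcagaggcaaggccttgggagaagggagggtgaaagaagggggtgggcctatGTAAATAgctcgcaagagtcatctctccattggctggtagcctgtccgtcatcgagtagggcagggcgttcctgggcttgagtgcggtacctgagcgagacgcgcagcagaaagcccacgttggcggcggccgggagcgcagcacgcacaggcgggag
Bmp4: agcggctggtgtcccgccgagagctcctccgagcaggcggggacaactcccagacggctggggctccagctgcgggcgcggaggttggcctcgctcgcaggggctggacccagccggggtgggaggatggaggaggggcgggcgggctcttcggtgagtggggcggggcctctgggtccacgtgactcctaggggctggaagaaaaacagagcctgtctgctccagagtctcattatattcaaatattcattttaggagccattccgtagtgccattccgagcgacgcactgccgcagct
The Bmp6 promoter held 1 GTAAATA and neither other motif, with GTAAATA starting 108 bases before the start site, and none of the other 4 member promoters in the table held any of the 3 motifs. Of all 33469 promoters of the same length, 3.51% held GTAAATA, 3.78% held GTAAACA and 11.02% held GGCGCC. These matches describe letters only.

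Bmp6, a ligand best known as the signal from liver endothelium that sets hepcidin, was highest in the meningeal nuclei of every library. In meningeal nuclei it stood at 2688.0 CPM in the HGF scaffold library (349 UMIs), 1962.7 CPM in the scaffold library (936 UMIs) and 3870.7 CPM in the untreated library (2504 UMIs). In all other nuclei it stood at 148.4, 253.4 and 462.8 CPM in the HGF scaffold, scaffold and untreated libraries. The meningeal level was thus 18.1 times that of all other nuclei in the HGF scaffold library (15.1 to 21.8), 7.75 times in the scaffold library (7.12 to 8.43) and 8.36 times in the untreated library (7.91 to 8.85). The makeup of the other nuclei differed between libraries. Microglia or macrophages, low in Bmp6, held 36.4%, 18.5% and 3.89% of all UMIs of the HGF scaffold, scaffold and untreated libraries. Their part in these ratios was not tested. Meningeal nuclei held 65.1% of the Bmp6 UMIs of the HGF scaffold library, 41.0% of the scaffold library and 50.5% of the untreated library.

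Bmp6 was itself among the 10 leading genes of the Slc6a13-type cluster, although it took no part in the clustering. It was not among those 10 with Scrublet calls kept, with the highest Scrublet scores removed or with at least 500 genes per nucleus. Of the 14 lineages with at least 50 nuclei, the Slc6a13-type meningeal fibroblasts ranked first for Bmp6 and the Slc26a7-type nuclei ranked second in each of the 3 libraries. Slc6a13-type nuclei had 3527.3 CPM in the HGF scaffold library (2926.8 to 4214.7), 2817.8 CPM in the scaffold library (2546.1 to 3110.7) and 4838.9 CPM in the untreated library (4594.8 to 5092.7). Slc26a7-type nuclei had 2386.6 CPM in the HGF scaffold library (2086.9 to 2717.3), 1609.2 CPM in the scaffold library (1476.7 to 1750.5) and 3012.4 CPM in the untreated library (2831.5 to 3201.8). Within each library the intervals of these lineages did not overlap, whereas over the 3 libraries their ranges did. The nuclei led by Ptgds and Igf2, which also carried Slc6a20 and Slc6a13, had 822.1, 747.6 and 1297.1 CPM in the HGF scaffold, scaffold and untreated libraries, and ranked next only in the HGF scaffold library. The Tenm2 nuclei had 948.8 CPM in the scaffold library and 821.3 CPM in the untreated library, and 0 UMIs in the HGF scaffold library, where only 5 such nuclei allow a level of up to 1316.0 CPM.

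Other lineages lay lower, and below the second place the ranges of neighbouring lineages over the 3 libraries overlapped. Fibroblasts had 323.7, 278 and 770.9 CPM in the HGF scaffold, scaffold and untreated libraries, and endothelial cells 183.7, 358.5 and 579.7 CPM. Neurons had 125.1, 274.1 and 283.2 CPM. The cluster named from neutrophil markers had 415.3 and 439.3 CPM in the HGF scaffold and scaffold libraries. Its 14 untreated nuclei hardly carried that name's markers: the neutrophil list summed to 4376.2, 1509.4 and 16.8 CPM in the HGF scaffold, scaffold and untreated libraries, with 10 of 11 genes at 0 in the untreated library. In these 14 nuclei the endothelial list summed to 7066.7 CPM, the ependymal list to 990.3 CPM and the Slc26a7-type list to 14267.7 CPM, and Bmp6 stood at 1376.4 CPM. In 6 of 6 other clusterings the neutrophil cluster held 0 untreated nuclei. In the scaffold library 44 of the 94 Bmp6 UMIs of that cluster lay in a single nucleus. Microglia or macrophages were lowest of the 14 by mean level, with 69.2, 82.1 and 121 CPM.

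**Figure D1:**
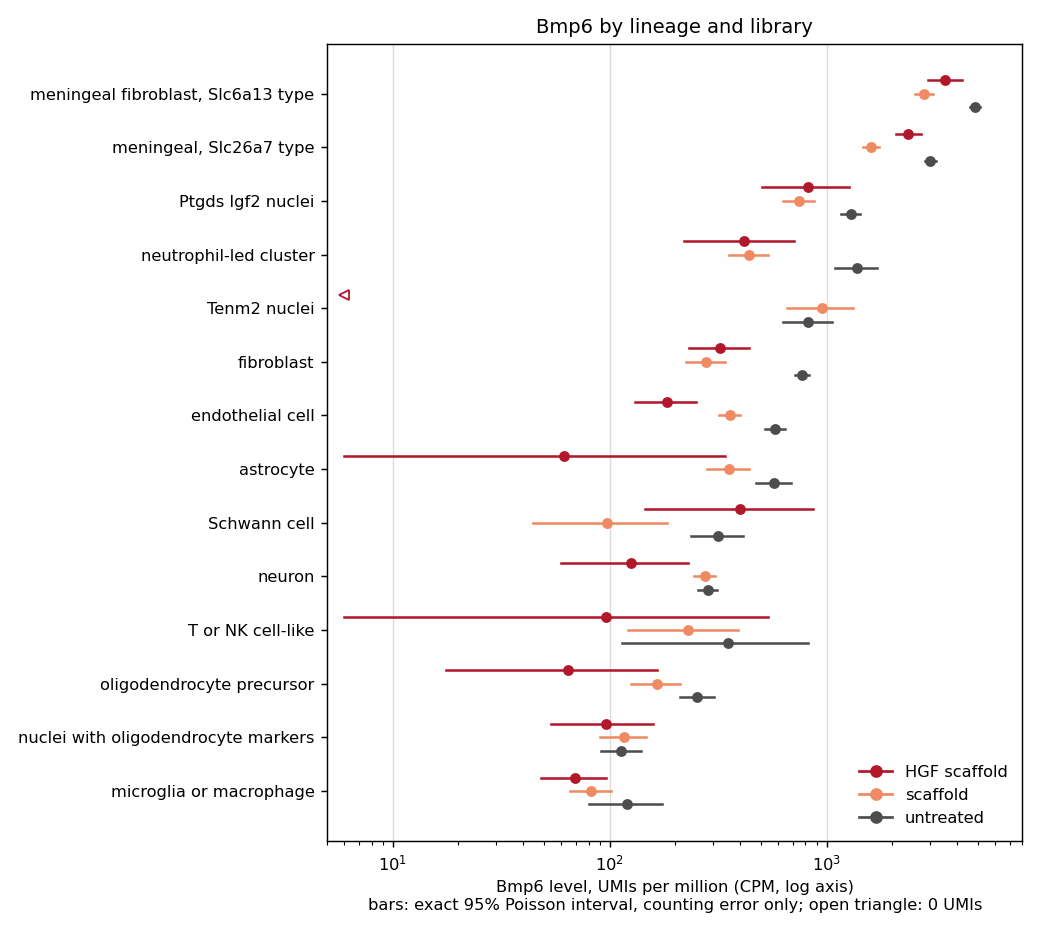
Bmp6 level in CPM (horizontal log axis) in 14 lineages, with the HGF scaffold, scaffold and untreated libraries from top to bottom in each; points are levels and bars exact 95% Poisson intervals, and the open triangle marks 0 UMIs. The Slc6a13-type and Slc26a7-type meningeal nuclei lie highest in each library, and microglia or macrophages lie near 100 CPM.

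At the level of single nuclei, 75.6% of meningeal nuclei in the HGF scaffold library had a Bmp6 UMI (64.9 to 84.4), 74.7% in the scaffold library (68.3 to 80.3) and 80.5% in the untreated library (75.9 to 84.6). The median meningeal nucleus held 3, 2 and 3 Bmp6 UMIs in the HGF scaffold, scaffold and untreated libraries, and the highest held 24, 37 and 68. The 10% of meningeal nuclei with the most held 39.3%, 46.3% and 45.3% of the meningeal Bmp6 UMIs. Microglia or macrophages had a Bmp6 UMI in 3.33%, 10.5% and 7.60% of nuclei. They were taken as a background because they were lowest in Bmp6 by mean level, though not in every library, so a contrast with them was built in. The median depth of microglia or macrophages was 950.0, 1719.0 and 789.0 UMIs, against 1165.5, 1414.0 and 1379.0 UMIs in meningeal nuclei. After each nucleus was thinned to 500 UMIs, the shares with a Bmp6 UMI were 59.8%, 47.9% and 62.8% in meningeal nuclei and 1.54%, 3.56% and 6.40% in microglia or macrophages, in the HGF scaffold, scaffold and untreated libraries. Neurons, whose nuclei are deep, had a share of 42.5% in the scaffold library and 46.5% in the untreated library, and of 7.77% and 6.37% after thinning, against the microglial 3.56% and 6.40% in those libraries.

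**Figure D2:**
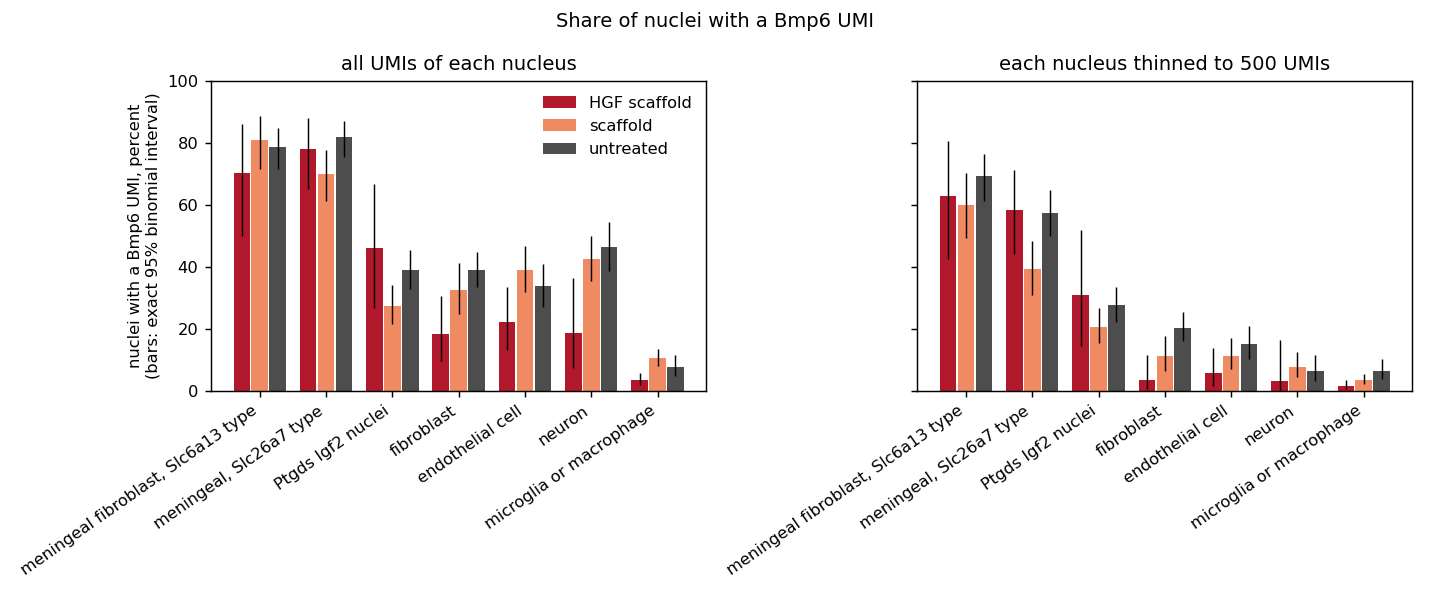
Percent of nuclei with a Bmp6 UMI (vertical axis) in 7 lineages, with all UMIs (left) and after thinning each nucleus to 500 UMIs (right); bars are HGF scaffold, scaffold and untreated from left to right, with exact 95% binomial intervals. Thinning leaves the meningeal shares at 39.4% or more and brings the neuronal shares to 7.77% or less.

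For scale, the Bmp6 UMIs were set against those of the meningeal markers Slc6a13 and Slc26a7 in the same nuclei. Meningeal nuclei held 2.96 Bmp6 UMIs per marker UMI in the HGF scaffold library, 3.17 in the scaffold library and 3.24 in the untreated library. All other nuclei held 2.03, 3.81 and 4.07. Pooled over the nuclei outside the meningeal clusters, Bmp6 was accompanied by meningeal marker UMIs, and their part in its level there was not tested. The Ptgds Igf2 nuclei held 16, 71 and 103 of these 92, 353 and 603 marker UMIs. By lineage the values varied. Fibroblasts held 2.93, 3.68 and 3.86 Bmp6 UMIs per marker UMI, and neurons 10, 5.05 and 5.54. The neuronal value of 10 rested on 1 marker UMI in the HGF scaffold library. Schwann cells held 6, 9 and 53 Bmp6 UMIs beside 0, 0 and 24 marker UMIs in the HGF scaffold, scaffold and untreated libraries. T or NK cells held 1, 13 and 5 Bmp6 UMIs beside 0, 0 and 2 marker UMIs.

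Scaffold and untreated libraries were compared first. The question is whether the BMP genes differ in cord that held a scaffold. Over all nuclei, Bmp6 stood at 394.2 CPM in the scaffold library and 833.5 CPM in the untreated library, a ratio of 0.473 (0.450 to 0.497). It was the 1 of 8 members past 2-fold, with 3.98% of all 11931 genes tested lower by 2-fold and 7.12% higher. Bmp4 stood at 20.6 CPM in the scaffold library and 39.2 CPM in the untreated library, a ratio of 0.525 (0.417 to 0.657). Bmpr1a stood at 44.9 and 79.7 CPM in the scaffold and untreated libraries, a ratio of 0.564 (0.483 to 0.657). Bmp5 had 17.3 CPM in the scaffold library against 26.6 CPM in the untreated library (ratio 0.650, 0.501 to 0.841). Bmp7 had 14.3 CPM against 19.3 CPM (ratio 0.742, 0.552 to 0.992). Bmpr2, the type II receptor, was level at 345.3 and 348.2 CPM in the scaffold and untreated libraries (ratio 0.992, 0.932 to 1.06). All 8 members lay below the median of all genes, with a median log2 ratio of -0.53 over the members against 0.04 over all genes tested. Intervals of Bmp2 and Bmpr1b spanned 1 at 14 and 28 scaffold UMIs against 19 and 39 untreated UMIs.

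Within meningeal nuclei, the scaffold library had 0.507 times the untreated level of Bmp6 (0.470 to 0.547). By lineage, the ratio was 0.582 in Slc6a13-type fibroblasts (0.520 to 0.651) and 0.534 in Slc26a7-type nuclei (0.481 to 0.593). The Slc26a7-type ratio came to 0.852 with at least 500 genes per nucleus, 0.803 with finer clusters and 0.784 with lineages set by marker score. Outside the meningeal nuclei the ratio was 0.548 (0.512 to 0.585). In fibroblasts it was 0.361 (0.287 to 0.448), or 0.893 with finer clusters. In those fibroblasts the Slc26a7-type list summed to 4372.4 CPM in the scaffold library and 9306.1 CPM in the untreated library, with 10 of 12 measured lower, and the microglia or macrophage list to 4393.6 and 1482.3 CPM, with 18 of 20 higher; their part was not tested. In neurons it was 0.968 (0.832 to 1.13), an interval that includes 1. Bmp4 in Slc26a7-type nuclei was 97.8 CPM in the scaffold library and 201.2 CPM in the untreated library, 33 against 69 UMIs (ratio 0.486, 0.311 to 0.746). It was the 1 of 6 measured members past 2-fold there, with 3.74% of genes lower by 2-fold, and its ratio was 0.449 to 0.705 over the alternatives, on both sides of 2-fold. Over both meningeal lineages together, 0 of 6 members passed 2-fold, with 3.52% of genes lower and 8.65% higher.

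In 6 other lineages some measured members were lower by 2-fold in the scaffold library. They were 1 of 5 in Slc6a13-type fibroblasts (Bmpr1a, background 6.04% of genes), 2 of 6 in fibroblasts (Bmp4 and Bmp6, 8.46%), 1 of 5 in Ptgds Igf2 nuclei (Bmpr1a, 5.21%), 1 of 4 in endothelial cells (Bmp4, 4.45%), 1 of 3 in microglia or macrophages (Bmpr1a, 8.88%) and 2 of 3 in Schwann cells (Bmp6 and Bmpr1a, 7.68%). Most of these calls ended under some alternative: the ratio of Bmpr1a reached 0.665 in Slc6a13-type fibroblasts, 0.601 in Ptgds Igf2 nuclei and 0.794 in microglia or macrophages, that of Bmp4 reached 0.635 in endothelial cells, and that of Bmp6 reached 0.614 in Schwann cells. Bmpr1a in Schwann cells stayed past 2-fold, at 0.168 to 0.441, but from only 4 scaffold UMIs against 26 untreated UMIs. In these nuclei the Schwann cell list summed to 5975.9 CPM in the scaffold library and 9986.2 CPM in the untreated library, with 8 of 11 measured lower. The microglia or macrophage list summed to 4052.3 and 936 CPM, with 8 of 8 higher. The part of both lists in that ratio was not tested. In the neutrophil-led cluster Bmp6 was 1 of 2 measured members lower by 2-fold (15% of genes were), but the ratio sets nuclei with neutrophil markers against 14 with hardly any, and it came to 1.14 by marker score. Bmp4 in fibroblasts rested on 4 scaffold UMIs against 43 untreated UMIs and its ratio of 0.269 came to 1.03 with each nucleus given equal weight. In the 6 remaining lineages no measured member was lower by 2-fold, where 1.97% to 9.96% of genes were, and no measured member was higher by 2-fold in any of the 14 lineages, where 5.65% to 24.9% of genes were.

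Marker genes moved with these ratios. In Slc26a7-type nuclei the lineage's own 14 markers summed to 16794.8 CPM in the scaffold library and 29599.0 CPM in the untreated library, and 10 of 11 measured were lower. In Slc6a13-type nuclei the own list summed to 5047.7 and 6473.8 CPM in the scaffold and untreated libraries, and 8 of 11 were lower. The microglia or macrophage list in Slc26a7-type nuclei summed to 4249.8 CPM in the scaffold library against 813.6 CPM in the untreated library, and all 15 measured were higher. In Slc6a13-type nuclei it summed to 4187.3 CPM against 1279.6 CPM. The part of these markers in the Bmp6 ratios was not tested. Giving the untreated levels of each lineage the scaffold library's makeup of lineages yields a Bmp6 level of 673.8 CPM. Measured were 394.2 CPM in the scaffold library and 833.5 CPM in the untreated library. The same step yields 18.9 CPM for Bmp5 (17.3 scaffold, 26.6 untreated) and 15.5 CPM for Bmp7 (14.3 and 19.3). It yields 37.25 CPM for Bmp4 (20.6 and 39.2) and 69.2 CPM for Bmpr1a (44.9 and 79.7). For Bmp2, Bmpr1b and Bmpr2 it yields 2.56, 5.85 and 372.6 CPM, against 2.42, 4.84 and 345.3 CPM in the scaffold library.

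**Figure D3:**
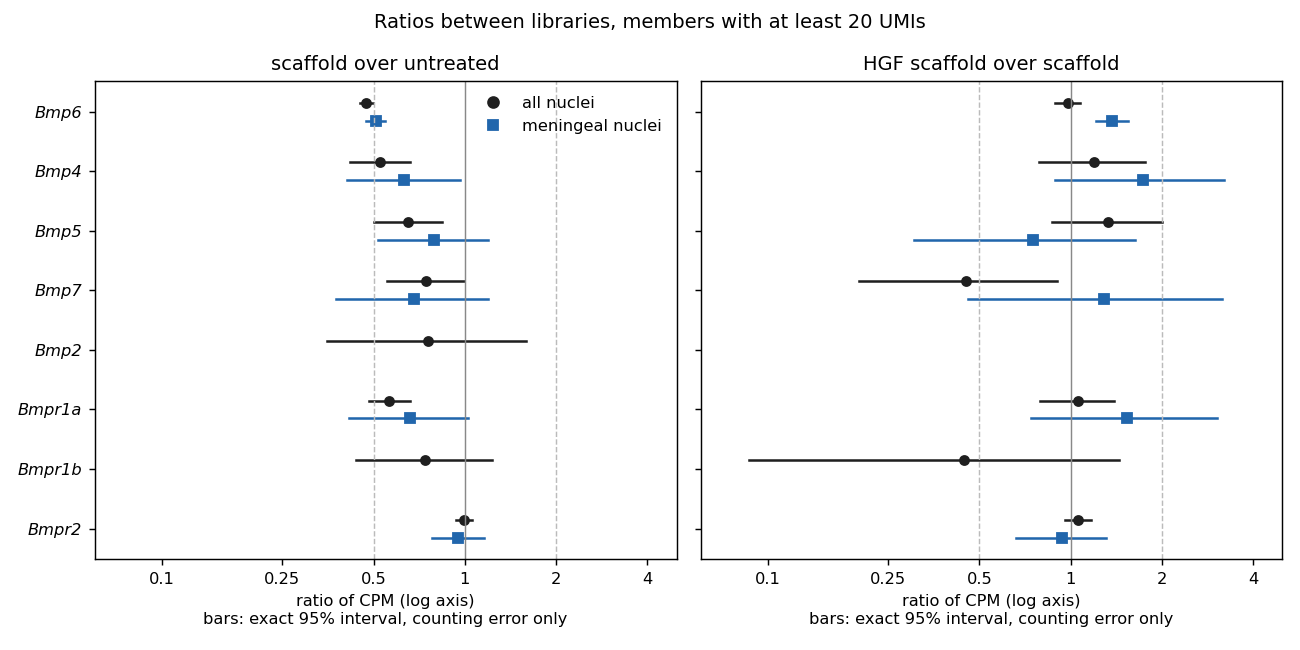
Ratios of CPM between libraries (horizontal log axis) for the members with at least 20 UMIs, scaffold over untreated on the left and HGF scaffold over scaffold on the right, in all nuclei (circles) and meningeal nuclei (squares), with exact 95% intervals; dashed lines mark 2-fold. Bmp6 lies at 0.473 and 0.507 on the left, and at 0.978 and 1.37 on the right.

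The HGF scaffold and scaffold libraries were compared next. Over all nuclei, Bmp6 was level, with 385.6 CPM in the HGF scaffold library and 394.2 CPM in the scaffold library (ratio 0.978, 0.889 to 1.08). In meningeal nuclei it was 1.37 times the scaffold level (1.21 to 1.55), and in all other nuclei 0.586 times (0.4998 to 0.683). Microglia or macrophages, low in Bmp6, held 36.4% of the HGF scaffold UMIs and 18.5% of the scaffold UMIs. Their part in the ratio of all other nuclei was not tested. Slc26a7-type nuclei had a ratio of 1.48 (1.27 to 1.73) and Slc6a13-type fibroblasts of 1.25 (1.01 to 1.54). Markers moved with the ratio in Slc26a7-type nuclei, but the own list did not in Slc6a13-type fibroblasts. In these fibroblasts the own list summed to 4605.9 and 5047.7 CPM in the HGF scaffold and scaffold libraries, with 4 of 8 measured lower. Their microglia or macrophage list summed to 4460.1 and 4187.3 CPM, with 7 of 12 lower. The meningeal markers Slc6a13 and Slc26a7 together stood at 908.8 CPM in meningeal nuclei of the HGF scaffold library and 618.6 CPM in those of the scaffold library. In Slc26a7-type nuclei the own list summed to 21008.4 and 16794.8 CPM in the HGF scaffold and scaffold libraries, with 7 of 11 measured higher, and the microglia or macrophage list to 2993.7 and 4249.8 CPM, with 11 of 15 lower. Endothelial cells had a ratio of 0.512 (0.359 to 0.713) from 40 HGF scaffold UMIs. There the Slc26a7-type list summed to 2397.4 CPM in the HGF scaffold library and 5369.4 CPM in the scaffold library, with 8 of 11 lower, and 15 of 15 endothelial markers were higher. Nuclei with markers of many lineages were 6 of 72 endothelial nuclei in the HGF scaffold library and 72 of 177 in the scaffold library. Among neurons they were 3 of 32 and 76 of 193, and in the whole libraries 24 of 891 and 285 of 2167. The part of these markers in the Bmp6 ratios was not tested. Past 2-fold, Bmp6 was lower as 1 of 3 measured members in neurons (0.456, 0.217 to 0.850, from 10 HGF scaffold UMIs, background 11.4% of genes), in astrocytes (1 against 82 UMIs, 14.6%) and in oligodendrocyte precursors (4 against 61 UMIs, 17%). In astrocytes the direction turned under 2 alternatives, and the neuronal ratio was 0.279 to 0.813 over the alternatives. In the neutrophil-led cluster Bmpr2 was 1 of 2 members lower (3 against 58 UMIs, 15.8%), with a ratio of 0.163 to 0.790 over the alternatives. In the 10 remaining lineages no measured member was lower by 2-fold, where 4.77% to 18.4% of genes were. Neither meningeal ratio passed 2-fold, and 0 of 6 members measured in meningeal nuclei did, with 7.76% of genes lower and 3.49% higher by 2-fold. Over all nuclei 2 of 7 members passed 2-fold, both lower, against 5.41% of genes lower and 2.38% higher. These were Bmp7, with 9 UMIs in the HGF scaffold library and 83 in the scaffold library (ratio 0.452, 0.1995 to 0.899, and 0.529 with Scrublet calls kept), and Bmpr1b, with 3 and 28 UMIs (ratio 0.446, 0.0868 to 1.44, and up to 0.524 over the alternatives), whose interval includes 1. Bmp7 was lower outside the meningeal clusters, with 2 UMIs in the HGF scaffold library against 63 in the scaffold library (ratio 0.134, 0.0159 to 0.504), while meningeal nuclei held 7 and 20 UMIs (ratio 1.29, 0.459 to 3.17). Giving the scaffold levels of each lineage the HGF scaffold library's makeup of lineages yields 2.98 CPM for Bmpr1b. Measured were 2.16 CPM in the HGF scaffold library and 4.84 CPM in the scaffold library. For Bmp7 the step yields 12.07 CPM, against 6.47 and 14.3 CPM. Astrocytes, highest in Bmpr1b, were 23 of 891 HGF scaffold nuclei and 182 of 2167 scaffold nuclei. Their Bmpr1b level was 61.4 and 77.7 CPM, from 1 and 18 UMIs. The part of astrocytes was not tested. The HGF scaffold and untreated libraries are given side by side only, since they differ in both the scaffold and HGF.

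The remaining ligands were sparser and had other profiles. Bmp4, a ligand that patterns dorsal tissue, was highest in Slc26a7-type nuclei in each library, with 167.5 CPM in the HGF scaffold library, 97.8 CPM in the scaffold library and 201.2 CPM in the untreated library. In Slc6a13-type fibroblasts the same libraries had 0, 1 and 4 Bmp4 UMIs (0, 7.17 and 13.2 CPM). The meningeal Bmp4 level was thus carried by the Slc26a7 type. Oligodendrocyte precursors had 32.2, 43.2 and 54.6 CPM of Bmp4. Bmp5, a ligand close in sequence to Bmp6, had 58.3, 114.7 and 128.3 CPM in Slc6a13-type fibroblasts, from 2, 16 and 39 UMIs. The 2 HGF scaffold UMIs allow 7.06 to 210.6 CPM. In Slc26a7-type nuclei Bmp5 had 62.8, 68.2 and 81.7 CPM. Bmp7 had 145.8, 71.7 and 79.0 CPM in Slc6a13-type fibroblasts, from 5, 10 and 24 UMIs, and 20.9, 29.6 and 46.7 CPM in Slc26a7-type nuclei. The Slc6a13 type ranked first for Bmp7 only in the HGF scaffold library. Ptgds Igf2 nuclei were highest in the untreated library (86.7 CPM, 26 UMIs) and Tenm2 nuclei in the scaffold library (81.3 CPM, 3 UMIs). Bmp2 gave 4, 14 and 19 UMIs in whole libraries and no lineage held more than 7, so its place was not resolved at this depth. In endothelial cells Bmp5 was the 1 of 5 measured members higher by 2-fold, with 3.64% of genes higher: it had 13 UMIs in the HGF scaffold library and 12 in the scaffold library (ratio 4.54, 1.91 to 10.9), but 12 of the 13 lay in a single nucleus and the ratio was 1.06 with each nucleus given equal weight.

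**Figure D4:**
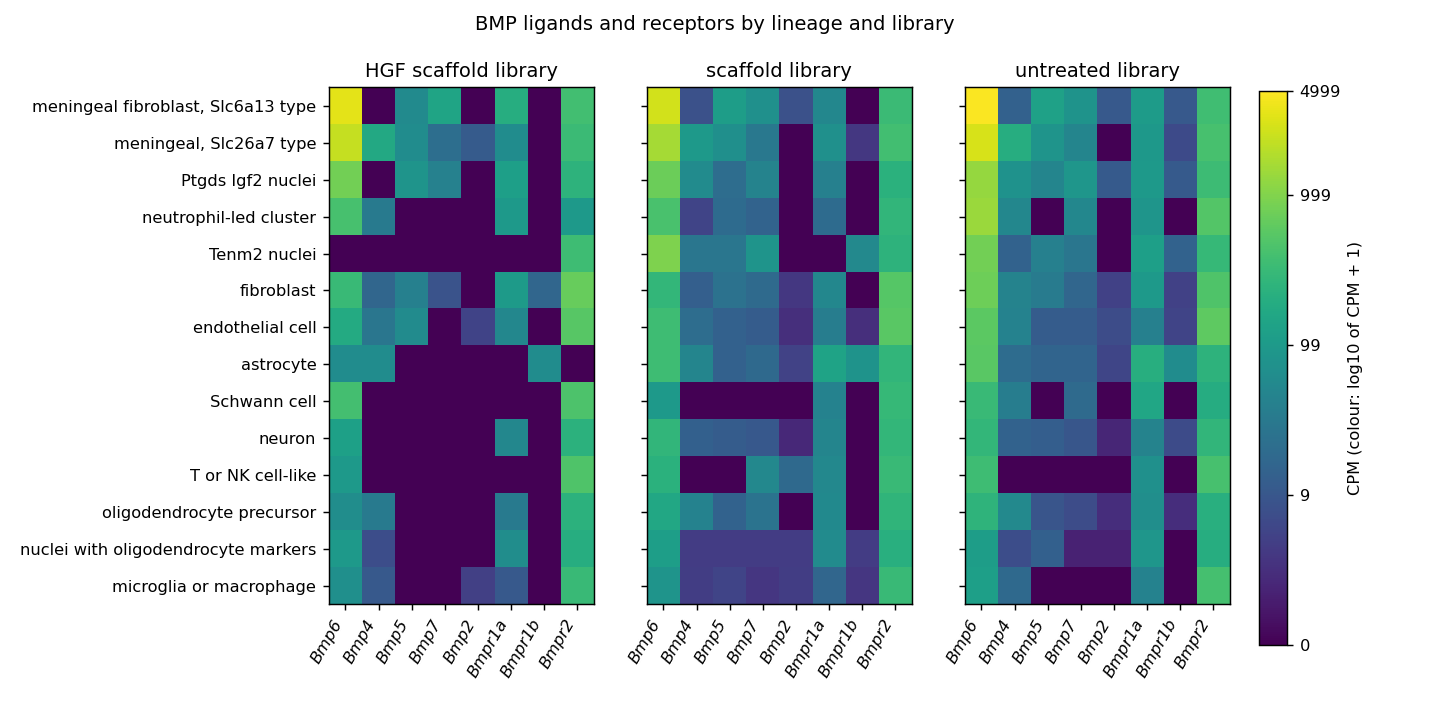
Level of the 8 members (columns) in 14 lineages (rows) in the HGF scaffold, scaffold and untreated libraries (panels, left to right), coloured by the log10 of CPM + 1. Bmp6 is highest in the meningeal rows, Bmp4 in Slc26a7-type nuclei and Bmpr1b in astrocytes, and Bmpr2 is spread over the lineages with 0 UMIs in HGF scaffold astrocytes.

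The receptors were spread differently. Bmpr2, the type II receptor, was found in all 14 lineages over the libraries, although the 23 astrocytes of the HGF scaffold library had 0 UMIs, with its highest mean levels in endothelial cells and fibroblasts. Endothelial cells had 546.5 CPM in the HGF scaffold library, 570.2 CPM in the scaffold library and 614 CPM in the untreated library, 1.65, 1.88 and 1.94 times the level of all other nuclei. Fibroblasts had 694.7, 528.8 and 478.4 CPM, so the order of these lineages differed between libraries. Meningeal nuclei had 346.6, 369.1 and 389.5 CPM of Bmpr2, 0.943, 1.08 and 1.14 times all other nuclei, with intervals that all included 1. Bmpr1a, a type I receptor, had 138.1 CPM in scaffold astrocytes and 208.3 CPM in untreated astrocytes, the highest level of any lineage in those libraries, and 0 UMIs in the 23 astrocyte nuclei of the HGF scaffold library, which allows up to 226.5 CPM. Bmpr1b, the other type I receptor, had its highest level in astrocytes of each library, which held 1 of its 3 UMIs in the HGF scaffold library, 18 of 28 in the scaffold library and 13 of 39 in the untreated library. Its astrocyte level was 43.2 times that of all other nuclei in the scaffold library (18.9 to 104.7) and 13.9 times in the untreated library (6.56 to 28.1). Meningeal nuclei held 0, 1 and 5 Bmpr1b UMIs.

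Other pathway genes were read from 6 lists, with 61 of 69 genes in the files. Among the SMAD regulators, Smad6, which blocks BMP receptor signalling, had 282.6, 254.9 and 341.2 CPM in Slc26a7-type nuclei of the HGF scaffold, scaffold and untreated libraries. Tgfbr3, a coreceptor that binds BMPs and TGF-beta, had 932.8, 774.4 and 1233.6 CPM in Slc6a13-type fibroblasts and 701.3, 471.2 and 854.4 CPM in Slc26a7-type nuclei. Of the inhibitors, Bmper, a secreted BMP-binding modulator, had 230.3, 269.7 and 361.6 CPM in Slc26a7-type nuclei and 0, 6 and 6 UMIs in Slc6a13-type fibroblasts. These genes are a selection and not always the highest of their list. By mean level in Slc26a7-type nuclei, Smurf2 (430.5 CPM) lay above Smad6 (292.9 CPM). Fstl1 (415.1 CPM) and Crim1 (370.3 CPM) lay above Bmper (287.2 CPM). Over all nuclei in the scaffold library against the untreated library, 1 of 6 processing proteases was lower by 2-fold, Tll1, which cleaves the inhibitor chordin (32.7 against 88.1 CPM, ratio 0.371, 0.312 to 0.439), where 3.98% of all genes were. Of 9 measured BMP target genes 1 was higher by 2-fold, Id2 (20.6 against 9.75 CPM, ratio 2.11, 1.53 to 2.94), where 7.12% of all genes were, a share that 1 of 9 lies near. The 9 had a median log2 ratio of -0.24 against 0.04 for all genes. In the HGF scaffold library against the scaffold library, 4 of 13 measured inhibitors were lower by 2-fold, where 5.41% of all genes were, and 3 of them had an interval below 1. They were Vwc2 (6.47 against 39.2 CPM, ratio 0.165, 0.0745 to 0.319), Chrd, which sequesters BMPs (2.16 against 7.77 CPM, ratio 0.278, 0.0552 to 0.865), and Vwc2l (13.0 against 28.3 CPM, ratio 0.457, 0.264 to 0.745). Neurons made up 3.59% of the HGF scaffold nuclei and 8.91% of the scaffold nuclei. They held 5.75% of the HGF scaffold UMIs and 20.4% of the scaffold UMIs, and their part in these ratios was not tested.

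Across the 14 lineages, genes whose profile was among the most like Bmp6 by Pearson's r of log2(CPM + 10), of 8049 genes with at least 200 UMIs, were Zic1 (r = 0.955), Mrvi1 (0.943), Eya2 (0.913) and Uaca (0.898). The points share libraries and depth, and Zic1 and Eya2 (and Slc4a4, next) are on the meningeal marker lists that named the clusters. Bmp4 was most like Tmem100 (0.836), Slc4a4 (0.801) and Efemp1 (0.792). Bmp5 was most like Kit (0.907), Eln (0.907) and Ism1 (0.902), and Bmp7 was most like Ppp1r7 (0.951), Kcnk2 (0.936) and Zic2 (0.934). Among receptors, Bmpr1a was most like Plekhh2 (0.763), Ndufs7 (0.762) and Lamc3 (0.761), and Bmpr2 most like Zfp644 (0.844), Adam9 (0.820) and Plcb4 (0.809).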

How the data were processed

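Nuclei were captured on 10x Genomics 3′ chemistry and read at 150 bp from both ends, per the labels' protocols. The authors deposited whole-number UMI counts per gene and nucleus, not normalized; Cell Ranger 6.0.1 is named in the submitters' processing notes, and the build and annotation are not given in the sources used here. Nuclei were kept from 200 genes up, with 5% mitochondrial UMIs or less and no Scrublet call, which left 5306 of 5326. Scrublet marked under 0.5% of nuclei and so did not work as a doublet filter. Nuclei with at least 3 markers in each of at least 5 lineages stayed in and were removed only in an alternative. They were 24 of 891 nuclei in the HGF scaffold library, 285 of 2167 in the scaffold library and 240 of 2248 in the untreated library. The 3 libraries were clustered together in scanpy 1.11.5 (2000 variable genes without the BMP and pathway genes, 30 principal components, 15 neighbours, Leiden resolution 1), giving 19 clusters. A cluster took the name of the marker list that held most of its 100 leading genes, from 3 genes up. A meningeal name also needed a title marker (Slc26a7 or Slc47a1, Slc6a13 or Slc6a20) among the 10 leading genes, and the oligodendrocyte cluster and others that missed a condition stayed unnamed. These conditions were set after seeing the data, and the members and lists were chosen with earlier results of these data known. Counts were summed per library and lineage. Levels have exact Poisson intervals, ratios exact conditional intervals, and shares exact binomial (Clopper-Pearson) intervals, all at 95% and for counting error only. A gene was measured from 20 UMIs over both libraries; past 2-fold is a size, not a test, and a count of 0 was set to a floor of 3 UMIs for that call. The ratio computation was tested on simulated data. All 8 members are named. Pathway genes are named when past 2-fold in all nuclei with an interval that leaves out 1. Of those among the 3 highest of a list in a meningeal lineage, only a selection is named. Promoters are from RefSeq, and the motifs were chosen after reading them. One gene with a profile like that of Bmp6 is not reported here.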

Additional observations from a re-analysis of the deposited data

How the results depend on the processing

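Bmp6 stayed higher in meningeal than in all other nuclei under each alternative run. In the HGF scaffold library the ratio was 22.6 with nuclei holding markers of many lineages removed, 14.9 with lineages by marker score and 25.6 with each nucleus given equal weight. In the scaffold library it was 9.27 with the highest Scrublet scores removed, 12.3 without nuclei of many lineages, 9.89 with at least 500 genes per nucleus, 10.2 at Leiden resolution 2, 9.86 with equal weight and 6.86 with the Ptgds Igf2 and Tenm2 nuclei counted as meningeal, which was chosen after seeing the data. In the untreated library it was 10.9 without nuclei of many lineages, 7.13 with 500 genes, 6.98 by marker score and 7.12 with the added clusters. The count of members past 2-fold, scaffold over untreated, was 2 in all nuclei without nuclei of many lineages, and in meningeal nuclei 1 by marker score, 1 when scaled by the median ratio and 2 with no UMI minimum. HGF scaffold over scaffold, it was 1 in all nuclei with Scrublet calls kept, 1 with 500 genes and 1 with a minimum of 50 UMIs, and in meningeal nuclei 1 without nuclei of many lineages and 2 with no UMI minimum. Among the 20 ratios of single members past 2-fold, 16 came under 2-fold in some alternative, and direction reversed for Bmp4 in fibroblasts, scaffold over untreated (1.03 with equal weight), Bmp6 in the neutrophil-led cluster (1.14 by marker score) and Bmp6 in astrocytes, HGF scaffold over scaffold (1.09 with 500 genes, 2.16 by marker score); the cause was not tested. Of the 113 ratios under 2-fold, 62 turned direction in some alternative, among them Bmp6, scaffold over untreated, in astrocytes (0.384 to 1.36) and oligodendrocyte precursors (0.345 to 1.05). Of the single-member values under these alternatives other than the reversed ones, 1026 stayed within the interval of the reported ratio and 97 did not. Bmp6, scaffold over untreated, ranged from 0.410 to 0.474 in all nuclei, 0.484 to 0.707 in meningeal nuclei and 0.492 to 0.606 in all other nuclei; HGF scaffold over scaffold, it ranged from 1.19 to 1.5 in meningeal nuclei and from 0.498 to 0.705 in all other nuclei. No paired analysis was possible because each group has 1 library and no test was made.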

Other observations

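In the 35 mural nuclei, too few to describe as a lineage, Bmp5 had 4 UMIs in the HGF scaffold library, 4 in the scaffold library and 2 in the untreated library, against 32, 100 and 158 in those whole libraries. The main limit is that each group is 1 library: a difference between animals, between dissections or in how much meningeal tissue was taken cannot be told apart from the implants. The HGF scaffold library is the shallowest, and its lineages often hold fewer than 20 UMIs of a member.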
